A study of Mus musculus with 2 samples.

Results

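The 9 genes described here are imprinted growth regulators, and they are 9 of the 27998 genes in the count tables. They are Igf2, H19, Dlk1, Meg3, Cdkn1c, Mest, Ndn, Peg3 and Gnas, and each symbol matched 1 row. The genes were selected on measured values, since Igf2, H19 and Dlk1 were picked with their difference between these libraries already known, so every level and ratio below is a description. Cells were dissociated from forelimb and hindlimb tendons of mouse pups at postnatal day 7 and sequenced as 1 library per condition, each a pool of 2 pups. The mutant library came from Tgfbr2;ScxCre pups (Tgfbr2 f/- by the study's text), in which a floxed allele of the TGFβ type II receptor is deleted by a Cre recombinase under the control of Scleraxis (Scx), a tendon transcription factor. The control library is titled wild-type, while its description field reads Het, and which alleles the control pups carried was not resolved here. All mice carried the ScxGFP tendon reporter and the RosaT Cre reporter, and ScxCre activity in embryonic tendon cells was described as uneven. The paper described targeting of tenocytes as complete only in early postnatal stages, with staining of the receptor nearly lost by birth. With 1 library per condition there was no spread between animals, so no test was run. Library and condition cannot be told apart.

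An imprinted gene is expressed mainly from the copy inherited from one parent. Igf2, Dlk1, Mest, Ndn and Peg3 are read mainly from the paternal copy, H19, Meg3 and Cdkn1c mainly from the maternal copy, and Gnas shows parent-specific expression only in some tissues. Many imprinted genes are abundant in fetal and newborn mesenchyme and are turned down as growth slows. The counts hold no allele information, so imprinting itself was not measured.

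Igf2 encodes an insulin-like growth factor and Dlk1 a transmembrane and secreted Notch-like protein known from preadipocytes. H19 and Meg3 are non-coding RNAs. Cdkn1c encodes p57, an inhibitor of cyclin-dependent kinases. Necdin, from Ndn, and the zinc finger protein of Peg3 are growth-restraining nuclear factors, Mest encodes a hydrolase-like protein, and Gnas encodes the stimulatory G protein α subunit. Igf2 (chr7:142650766-142666816, minus strand, GRCm38) and H19 (chr7:142575529-142578143, minus strand) were 72.6 kb apart, with Cdkn1c (chr7:143458339-143461050, minus strand) 792 kb from Igf2. Dlk1 (chr12:109452823-109463336, plus strand) and Meg3 (chr12:109541001-109571726, plus strand) were 77.7 kb apart. Mest (chr6:30723547-30748465, plus strand), Ndn (chr7:62346569-62350262, plus strand), Peg3 (chr7:6703892-6730431, minus strand) and Gnas (chr2:174284320-174346744, plus strand) lay apart from these. Genes on the other strand overlapped Igf2 (Igf2os), Meg3 (Gm26906), Cdkn1c (Gm44732), Mest (Copg2), Ndn (Gm32061) and Gnas (Nespas), and whether strand was used in counting is not given in the sources used here. Reads at 3′ ends assign molecules to a gene and not to a promoter, isoform or small RNA.

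Several of these transcripts hold microRNAs. They are shown because the H19, Igf2 and Mest molecules counted here come from genes that also give rise to them, while the mature microRNAs were not measured. Capitals mark the seed, bases 2 to 8, and the sequences are from RefSeq on GRCm38.p6, written 5′ to 3′. Meg3 also holds microRNAs (mmu-miR-1906, mmu-miR-770-5p and mmu-miR-770-3p), which are not shown. The 3 host genes shown share no seed.
mmu-miR-675-5p, in H19, chr7:142577112-142577133, minus strand: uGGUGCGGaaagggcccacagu
mmu-miR-675-3p, in H19, chr7:142577078-142577099, minus strand: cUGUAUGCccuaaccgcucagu
mmu-miR-483-5p, in Igf2, chr7:142654968-142654989, minus strand: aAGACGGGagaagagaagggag
mmu-miR-483-3p, in Igf2, chr7:142654932-142654952, minus strand: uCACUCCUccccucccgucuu
mmu-miR-335-5p, in Mest, chr6:30741314-30741336, plus strand: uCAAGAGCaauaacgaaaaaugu
mmu-miR-335-3p, in Mest, chr6:30741354-30741375, plus strand: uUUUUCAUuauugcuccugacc

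Promoter sequence was matched for 7 of the 9 genes, with 16 start sites in all. The 250 bases before the start of Dlk1 and before 1 of the 2 starts of Meg3 are shown because these neighbours differed in Scx-high cells. Capitals mark matches to TATAAA on either strand, the core of the TATA box, which overlap in Meg3. This motif stood in 12.4% of 32851 such windows and in 4 of the 16 windows of these genes, of Meg3 and Gnas. The Gnas windows chr2:174327499-174327748 and chr2:174327518-174327767 overlap and hold the same match, so the 4 are not separate sites. GGGGCCCC, a palindrome, stood in 0.889% of all windows and in 1 of these genes, Peg3. The Dlk1 window and the Meg3 window not shown held neither.
Dlk1, chr12:109452573-109452822, plus strand: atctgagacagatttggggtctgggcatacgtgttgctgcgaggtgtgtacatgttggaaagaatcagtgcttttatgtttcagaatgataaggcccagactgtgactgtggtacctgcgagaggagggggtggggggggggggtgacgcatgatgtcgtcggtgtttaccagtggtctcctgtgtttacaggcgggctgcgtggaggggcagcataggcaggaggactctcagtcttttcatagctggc
Meg3, chr12:109540746-109540995, plus strand: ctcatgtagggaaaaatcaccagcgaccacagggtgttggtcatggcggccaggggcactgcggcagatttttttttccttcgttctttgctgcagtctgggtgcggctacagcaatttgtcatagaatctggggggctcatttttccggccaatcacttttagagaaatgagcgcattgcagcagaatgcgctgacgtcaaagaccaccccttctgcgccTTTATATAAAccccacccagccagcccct

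The wild-type library held 2364 cells and 9451606 UMIs (unique molecular identifiers, each standing for 1 captured molecule), and the mutant library 2592 cells and 8250248 UMIs. Cells with at least 30 Scx UMIs per 10000 are called Scx-high, and they made up 48.9% of wild-type and 8.22% of mutant cells. Cells below that level with at least 5 UMIs over Ly6a, Cd34, Dpt, Lum and Col3a1 are called Scx-low fibroblasts, and they made up 30.4% and 70.0%. Mural cells numbered 138 and 80, endothelial cells 22 and 26, and immune cells 194 in each library, all set by marker genes. Summed over 6 tendon genes, Scx-high cells held 89052 CPM in wild-type and 32944 CPM in mutant cells. The 5 fibroblast genes gave 690 and 5896 CPM there, so the label was met less cleanly in the mutant library. Scx counts include reads of the ScxGFP transgene wherever it shares Scx sequence. Tgfbr2 had 30.4 CPM in wild-type and 47.2 CPM in mutant Scx-high cells, which checks nothing, as 3′ tags do not read the deleted part of the gene. The libraries shared 2 cell barcodes.

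Levels are UMIs of a gene per 1000000 UMIs of a class (CPM), with exact Poisson 95% intervals that cover counting error only. Unless named otherwise, orders are over 5 classes: Scx-low fibroblasts, Scx-high, mural, endothelial and immune cells. Igf2, H19 and Dlk1 had their highest level of these in Scx-low fibroblasts in both libraries. In the wild-type library Igf2 stood at 957 CPM in Scx-low fibroblasts (920.5 to 994.3), 82.7 in endothelial, 59.8 in mural, 47.4 in immune and 36.6 in Scx-high cells (31.4 to 42.4). In the mutant library Igf2 stood at 872 CPM in Scx-low fibroblasts (848 to 897), 161 in Scx-high cells (137 to 187), 158 in mural, 141 in endothelial and 111 in immune cells. Fibroblasts stood apart from the other 4 classes in both libraries, and among those 4 the intervals of neighbours in this order overlapped. The fibroblasts supplied 89.9% of wild-type and 92.6% of mutant Igf2 UMIs outside haemoglobin-rich cells.

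H19 had the same leading class. In the wild-type library it stood at 2289 CPM in Scx-low fibroblasts (2233 to 2347), 177 in endothelial, 108 in immune, 93.3 in mural and 68.8 in Scx-high cells (61.6 to 76.7). In the mutant library it stood at 2858 CPM in fibroblasts (2814 to 2902), 396 in immune, 312 in Scx-high cells (278 to 349), 198 in mural and 169 in endothelial cells. Immune cells, a class not expected to make H19, thus held more of it than Scx-high cells did on the CPM scale, with a Scx-high over immune ratio of 0.637 (0.480 to 0.859) for the wild-type and 0.787 (0.647 to 0.962) for the mutant library. The 5 fibroblast genes summed to 235 CPM in wild-type and 1209 in mutant immune cells, so these cells are not a clean blank. Whether H19 in Scx-high cells stood above background was not tested.

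Dlk1 had mural cells in the next place after fibroblasts in both libraries, as did Ndn. In the wild-type library it stood at 1445 CPM in Scx-low fibroblasts (1400.1 to 1491), 589 in mural cells (533 to 649), 23.1 in Scx-high cells, 11.8 in endothelial cells from 1 UMI and 7.58 in immune cells from 4 UMIs. In the mutant library it stood at 2343 CPM in fibroblasts (2303 to 2383), 1310 in mural cells (1172 to 1459), 199 in immune, 161 in Scx-high and 70.6 in endothelial cells. The intervals of immune and Scx-high cells overlapped in the mutant library, and mural cells stood apart from both neighbours in both libraries. Dlk1 was unevenly spread within fibroblasts, where the 72 wild-type cells with the most Dlk1 held 53.9% of its UMIs and the 182 such mutant cells 49.6%. As many fibroblasts, ranked anew for each gene, held 36.3% and 34.9% of H19 UMIs and 25.4% and 25.2% of Gnas UMIs. Dlk1 had the highest share of the 9 genes in both libraries, but Peg3 was close to it. Such cells held 51.3% and 48.4% of Peg3 UMIs, 49.02% and 43.4% of Mest UMIs and 48.8% and 37.4% of Cdkn1c UMIs. Igf2, Meg3 and Ndn had lower shares than Mest in both libraries. Sparse counts raise such a share, and the genes differ in counts. Peg3 had 417 wild-type and 1020 mutant UMIs in fibroblasts, against 3935 and 13316 of Dlk1, so their shares are not directly comparable.

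Meg3 was spread over the whole mesenchyme. Its wild-type levels were 3880 CPM in Scx-low fibroblasts (3807 to 3955), 3330 in Scx-high cells (3279 to 3382), 1595 in mural, 520.1 in endothelial and 294 in immune cells. Its mutant levels were 4476 CPM in fibroblasts, 3335 in mural (3114 to 3568), 3091 in Scx-high (2983 to 3202), 427 in immune and 367 in endothelial cells. Mural and Scx-high cells overlapped in the mutant library and stood apart in the wild-type library. Dlk1 and Meg3, which lie next to each other, thus parted in Scx-high cells, where Meg3 was at 3330 and 3091 CPM and Dlk1 at 23.1 and 161.

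Cdkn1c was highest in fibroblasts of the 5 classes and next highest in Scx-high cells. Wild-type levels were 1223 CPM in Scx-low fibroblasts (1182 to 1266), 345 in Scx-high cells (329 to 362), 236 in endothelial, 46.7 in mural and 30.3 in immune cells. Mutant levels were 1630.2 CPM in fibroblasts, 499.6 in Scx-high cells (457 to 545), 176 in immune, 127 in endothelial and 115 in mural cells. Scx-high and endothelial cells overlapped in the wild-type library, while in the mutant library Scx-high cells stood apart from the other 4 classes.

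Mest differed in its order between the libraries. Wild-type levels were 579 CPM in endothelial cells (429 to 766), 337 in Scx-low fibroblasts (316 to 359.6), 246 in Scx-high cells, 29.2 in mural and 11.4 in immune cells. Mutant levels were 819 CPM in fibroblasts (795 to 843), 639 in Scx-high cells (590.4 to 691), 522 in endothelial cells (368 to 719.6), 103 in mural and 62.2 in immune cells. Of the 5 classes endothelial cells had the highest wild-type level and fibroblasts the highest mutant level. The endothelial classes were of 22 and 26 cells.

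Ndn and Peg3 were also highest in fibroblasts. Ndn stood at 471 CPM in wild-type and 341.5 in mutant Scx-low fibroblasts, at 182 and 170.1 in mural cells and at 116 and 100.3 in Scx-high cells. Peg3 stood at 153 and 179 CPM in fibroblasts, 70.3 and 63.2 in Scx-high cells and 35.0 and 15.8 in mural cells, the last from 4 UMIs. Gnas was broad, at 2647 and 3073 CPM in Scx-low fibroblasts, 2542 and 3274 in endothelial, 2095 and 2044 in Scx-high, 1942 and 2710.3 in mural and 663 and 870.2 in immune cells. Gnas intervals for fibroblasts and endothelial cells overlapped in each library.

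Cells that met no class rule, 31 wild-type and 64 mutant cells, had a low median depth of 1716 and 1521 UMIs. In them Dlk1 stood at 174 CPM from 10 UMIs and at 2339.9 from 265 UMIs, and Cdkn1c at 1165 and 3329 CPM. The mutant Cdkn1c level was thus above that of fibroblasts. The 6 muscle markers summed to 695 CPM in these wild-type and 671 in these mutant cells, against 90.7 and 59.3 in fibroblasts. Their part in the Cdkn1c level was not tested. H19, at 713 and 698 CPM, and Igf2, at 295 and 247 CPM, had intervals that overlapped between the libraries.

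**Figure D1:**
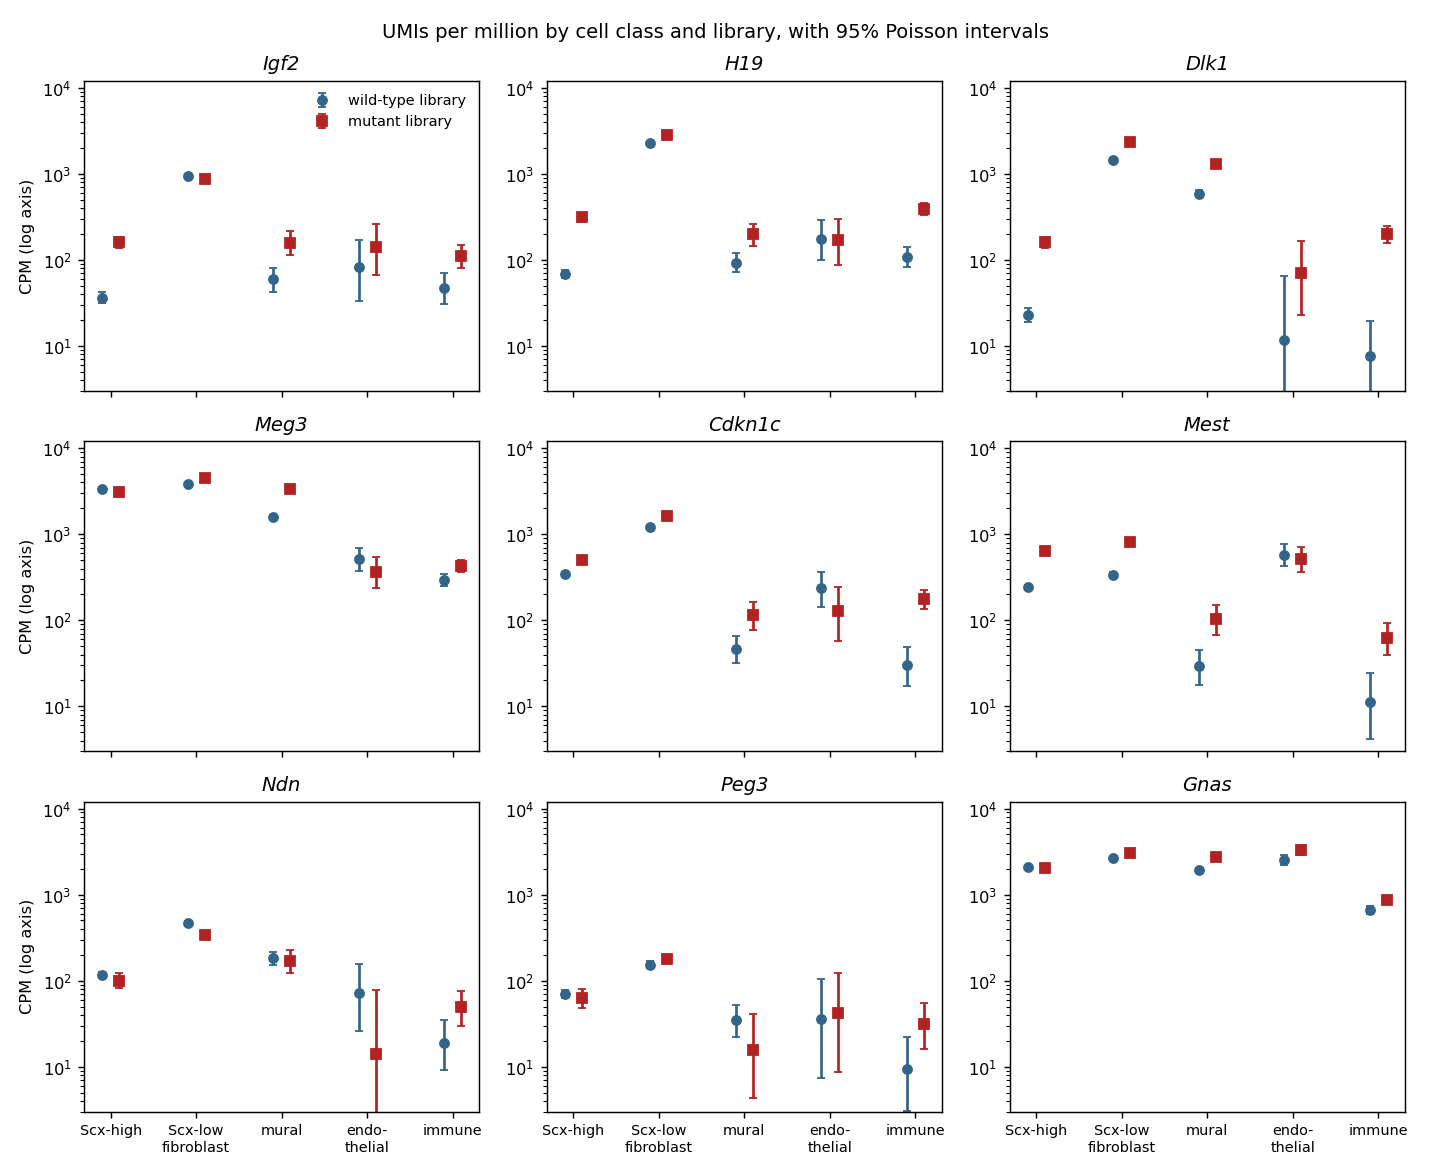
CPM of each gene (log axis) in 5 cell classes of the wild-type (circles) and mutant (squares) library, 1 library per condition, with exact Poisson 95% intervals. Igf2, H19 and Dlk1 sit far higher in Scx-low fibroblasts than in Scx-high cells, while Meg3 (1.17 and 1.45) and Gnas (1.26 and 1.504) have smaller fibroblast over Scx-high ratios.

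Scx-low fibroblasts and Scx-high cells were compared within each library, which needs no comparison between libraries. A gene counted as past 2-fold where its CPM was at least 2 times higher or lower, among genes with at least 50 UMIs over both classes, a filter that all 9 genes passed in each of the 4 main comparisons. In the wild-type library 6 of the 9 were at least 2-fold higher in fibroblasts, where 18.0% of 8429 genes were, and 0 were at least 2-fold lower, where 5.07% were. In the mutant library it was again 6, against 12.0% of 8443 genes, and 0 lower, against 4.74%. The median log2 ratio of the 9 genes was 1.83 and 1.71, and that of all genes 0.44 and 0.13. The choice of genes used these libraries, whose shares of fibroblasts differ, so nothing is read from these counts or medians.

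Dlk1 had the widest gap, 62.6-fold (51.8 to 76.3) in wild-type and 14.6-fold (12.5 to 17.2) in mutant cells. H19 was 33.3-fold (29.8 to 37.3) and 9.16-fold (8.19 to 10.3) higher in fibroblasts, and Igf2 26.1-fold (22.4 to 30.6) and 5.43-fold (4.64 to 6.40). The gaps of these 3 genes were thus smaller in the mutant library. Their intervals did not overlap between libraries, but they take every UMI as independent and cover no spread between cells or pups. Of mutant Scx-high cells the 21 with the most of each gene held 63.75% of Igf2, 78.1% of H19 and 86.9% of Dlk1 UMIs. In the wild-type library the top 116 of 1155 Scx-high cells held 100% of each, on 176 Igf2, 331 H19 and 111 Dlk1 UMIs. So few cells held a UMI there that this value shows sparse counts, and it cannot be compared with the mutant shares. For Dlk1 it was fixed, as 111 UMIs cannot fill more than 111 cells. Ndn was 4.06 and 3.40-fold higher, Cdkn1c 3.55 and 3.26-fold and Peg3 2.18 and 2.84-fold. Mest (1.37 and 1.28), Gnas (1.26 and 1.504) and Meg3 (1.17 and 1.45) had ratios closer to 1, and centring on the median of all genes took the wild-type Gnas and Meg3 ratios to 0.929 and 0.857. Other thresholds for the classes moved the Dlk1 gap in the mutant library to as much as 39.5-fold, with Scx-high cells taken from 50 per 10000.

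Between the libraries, the whole-library levels of all 9 genes were higher in the mutant, before any division into classes. Leaving out haemoglobin-rich cells, the ratio was 3.64 for Dlk1 (3.52 to 3.77), 2.87 for H19, 2.86 for Mest, 2.69 for Cdkn1c, 2.09 for Igf2, 1.64 for Peg3, 1.28 for Gnas, 1.25 for Meg3 and 1.23 for Ndn. Scx-low fibroblasts supplied 30.4% of wild-type and 71.8% of mutant UMIs. Holding each class at its wild-type level and taking the mutant proportions of classes gave 2.21 for Igf2, 2.24 for H19 and 2.18 for Dlk1. Holding the wild-type proportions and taking mutant levels gave 1.16, 1.44 and 1.85. Mest had the opposite split, with 1.26 from proportions and 2.46 from levels, and Ndn had 1.65 from proportions and 0.786 from levels. These classes were set by marker rules and need not hold the same kind of cell in both libraries. By lineage tracing the paper derived the ScxGFP-negative cells of mutant tendons from tenocytes. It described the cells that kept ScxGFP there as newly recruited, some of them with a weak or absent RosaT signal. Whether the mutant Scx-high cells are such recruits was not tested. Tendon surfaces were not scraped for these libraries, so surface cells can be among the fibroblasts. The split cannot tell a changed mix from changed cells. The paper compared mutant cells with wild-type tenocytes, and Dlk1, H19 and Igf2 were among its most upregulated genes.

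Within Scx-high cells 4 of the 9 genes were at least 2-fold higher in the mutant library, where 9.97% of 7301 genes were, and 0 were at least 2-fold lower, where 5.85% were. Within Scx-low fibroblasts 1 of the 9 was at least 2-fold higher, against 4.07% of 9184 genes, and 0 lower, against 4.43%. The median log2 ratio of the 9 genes was 0.53 in Scx-high cells and 0.23 in fibroblasts, against 0.25 and -0.03 for all genes. The choice of genes used these libraries, so nothing is read from the counts.

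Mest was the gene past 2-fold in both classes. It had 1181 UMIs in 1155 wild-type and 637 UMIs in 213 mutant Scx-high cells, a ratio of 2.60 (2.36 to 2.87). In fibroblasts it had 918 UMIs in 719 wild-type and 4654 UMIs in 1815 mutant cells, a ratio of 2.43 (2.26 to 2.61). In mural cells the ratio was 3.53 (1.89 to 6.66), and in endothelial cells 0.901 (0.572 to 1.41). In immune cells it was 5.46 (2.18 to 16.3) on 6 and 24 UMIs, where the 5 fibroblast genes summed to 235 and 1209 CPM, and their part in this ratio was not tested. After every cell was thinned to 1500 UMIs, 33.6% of wild-type and 55.5% of mutant fibroblasts held a Mest UMI. In Scx-high cells 252 of 1070 and 98 of 196 did, and in immune cells the shares were 2.61% and 7.08%.

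Igf2, H19 and Dlk1 were past 2-fold in Scx-high cells and not in fibroblasts. The mutant Scx-high cells need not be the same kind of cell as the wild-type ones, which was not tested. Igf2 had 176 UMIs in wild-type and 160 in mutant Scx-high cells, a CPM ratio of 4.39 (3.52 to 5.46), and in fibroblasts its ratio was 0.912 (0.869 to 0.956). H19 had 331 and 311 UMIs, a ratio of 4.53 (3.87 to 5.31), and 1.25 (1.21 to 1.29) in fibroblasts. Dlk1 had 111 and 160 UMIs, a ratio of 6.95 (5.43 to 8.94), and 1.62 (1.56 to 1.68) in fibroblasts. Of the 311 H19 UMIs in mutant Scx-high cells 67 came from 1 cell, and without the highest cell of each library the H19 ratio was 3.99. The Dlk1 ratio in Scx-high cells was 2.63 when these cells were taken from 50 Scx UMIs per 10000. In thinned Scx-high cells the share with an H19 UMI was 4.21% and 19.9%, with Igf2 3.83% and 15.8% and with Dlk1 3.27% and 8.67%. In immune cells, a class that should lack them, the H19 shares were 11.1% and 15.9%, the Igf2 shares 1.96% and 8.85% and the Dlk1 shares 1.31% and 12.4%. The median depth was 4291 and 4425 UMIs in Scx-high cells and 2415 and 1704 in immune cells. The wild-type H19 share and the mutant Dlk1 share of Scx-high cells were below those of immune cells.

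The fibroblast genes moved with these ratios. Of the wild-type Scx-high cells 180 of 1155 also held at least 5 UMIs over the 5 fibroblast genes, and of the mutant ones 177 of 213 did. Wild-type Scx-high cells with such UMIs had 304 CPM of H19 and those without had 16.5, an 18.4-fold gap (14.0 to 24.5). Comparing only Scx-high cells with at least 5 fibroblast UMIs, the mutant over wild-type ratio was 1.07 (0.903 to 1.27) for H19, 1.23 (0.956 to 1.57) for Igf2, 0.968 for Cdkn1c, 1.54 for Mest and 2.50 (1.79 to 3.55) for Dlk1. With this restriction Dlk1 was the only gene of the 9 past 2-fold. The share over all genes was not counted for it, so nothing is read from that count. The restriction also kept a smaller part of the wild-type than of the mutant Scx-high cells. In cells with fewer, of which the mutant library had 36, the ratio was 11.4 for H19 (6.39 to 19.5), 7.84 for Igf2 and 21.0 for Dlk1. If free RNA made up 5% of each cell, with the makeup that haemoglobin-rich cells show outside haemoglobin, 411 H19, 155 Igf2 and 444 Dlk1 UMIs would be due in wild-type Scx-high cells, against the 331, 176 and 111 counted. In mutant Scx-high cells 92.0, 9.68 and 19.4 would be due, against 311, 160 and 160 counted. These amounts rest on 37 H19, 14 Igf2 and 40 Dlk1 UMIs in wild-type and on 19, 2 and 4 in mutant haemoglobin-rich cells, so the mutant Igf2 makeup of 194 CPM had an interval of 23.5 to 702. The part of free RNA or of fibroblast RNA in these ratios was not tested.

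Cdkn1c had a ratio of 1.45 (1.31 to 1.60) in Scx-high cells and 1.33 (1.28 to 1.39) in fibroblasts, and the first was 1.02 with Scx-high cells taken from 50 per 10000. Ndn was lower in mutant fibroblasts, at 0.725 (0.676 to 0.779), with 1282 and 1941 UMIs, and its interval in Scx-high cells, 0.692 to 1.07, held 1. Peg3 had 0.899 (0.676 to 1.18) and 1.17 (1.04 to 1.32). Meg3 had 0.928 (0.893 to 0.965) and 1.15 (1.13 to 1.18), and Gnas 0.975, with an interval that held 1, and 1.16 (1.13 to 1.19). These intervals show counting error alone, and differences of this size cannot be set against any spread between pups.

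In mural cells, the contractile cells around vessels, Dlk1 had 404 wild-type and 331 mutant UMIs, a ratio of 2.22 (1.92 to 2.58), and Meg3 1094 and 843 UMIs, a ratio of 2.09 (1.91 to 2.29). This was not particular to these neighbours. Mest (3.53), Igf2 (2.65), Cdkn1c (2.46) and H19 (2.12) were also past 2-fold in mural cells, on 20 to 64 UMIs per library. Under other processing the Igf2 ratio fell to 0.984 and the H19 ratio to 0.776. Over the same 12 settings Mest and Cdkn1c stayed at 2.37 and 2.27 or higher. Gnas had 1.40, Ndn 0.933 and Peg3 0.452. The share over all genes was not counted for mural cells, so nothing is read from these ratios as a set. In immune cells Dlk1 had 4 and 77 UMIs, a ratio of 26.3 (9.87 to 99.0), H19 57 and 153 UMIs, a ratio of 3.67 (2.69 to 5.06), and Cdkn1c 16 and 68 UMIs, a ratio of 5.81 (3.33 to 10.7), which was 2.84 with marker minimums doubled. The 5 fibroblast genes, all 5 of them detected, summed to 235 and 1209 CPM in the same immune cells, and the part of this in the ratios was not tested.

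**Figure D2:**
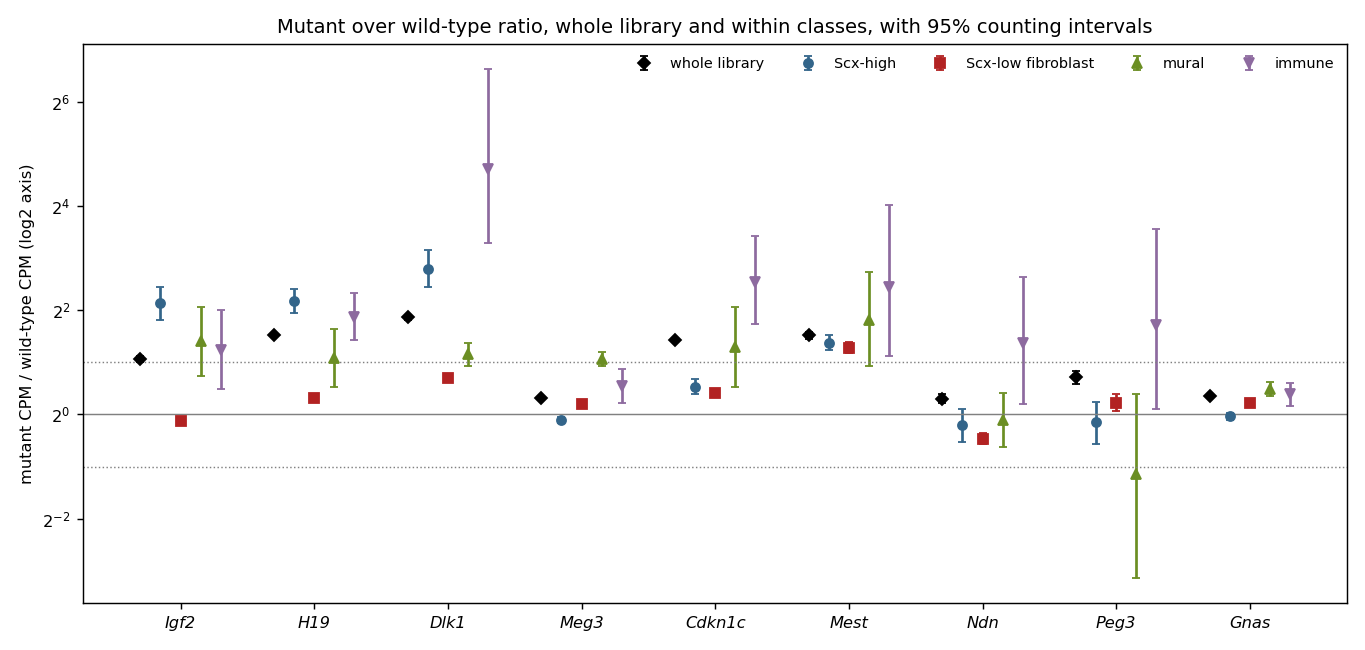
Mutant over wild-type CPM ratio of each gene (log2 axis) over the whole library without haemoglobin-rich cells and within 4 classes, with exact conditional 95% intervals; dotted lines mark 2-fold. Igf2 stands at 2.09 over the whole library, 4.39 in Scx-high cells and 0.912 in fibroblasts, while Mest is above 2 in all 5 series. Endothelial cells are not plotted, and their Mest ratio was 0.901.

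Levels were also set against Scx, the gene that separates the main classes, so the pattern below is a description. Scx-high, fibroblast and remaining cells were divided by Scx into 6 bins, from no Scx UMI to 300 or more per 10000. H19 went from 2586 CPM in wild-type cells without Scx to 18.0 in the highest bin, and from 3154 to 73.8 in the mutant library. Igf2 went from 1015 to 13.3 and from 952 to 57.4, and Dlk1 from 1629 to 12.0 and from 2779 to 21.9. Between these ends each of the 3 was lower in every next bin in both libraries. The wild-type library had a step between the bins of 10 to 30 and of 30 to 100, where H19 was 1495 and 174 CPM, whereas in the mutant library it was 888 and 711. The cutoff at 30 thus fell on that step in the wild-type library. Just outside it, at 20 to 30 per 10000, 32 wild-type cells held 832 CPM of H19 and 24 mutant cells 319, and just inside, at 30 to 40, 20 wild-type cells held 299 and 19 mutant cells 908.

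Cdkn1c went in the same direction from the lowest to the highest bin, from 1343 to 316 CPM in wild-type and from 1832 to 167 in mutant cells, with 810 and 979 CPM in the middle bins of the mutant library. Ndn went from 505 to 99.3 and from 366 to 73.8. Meg3 stayed between 2936 and 4302 CPM in all 6 wild-type bins and between 3023 and 4704 in the mutant bins. Gnas stayed between 1856 and 2818 and between 1865 and 3210.2. Mest was higher in the mutant library in each of the 6 bins, at 607 to 841 CPM against 219 to 561.

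**Figure D3:**
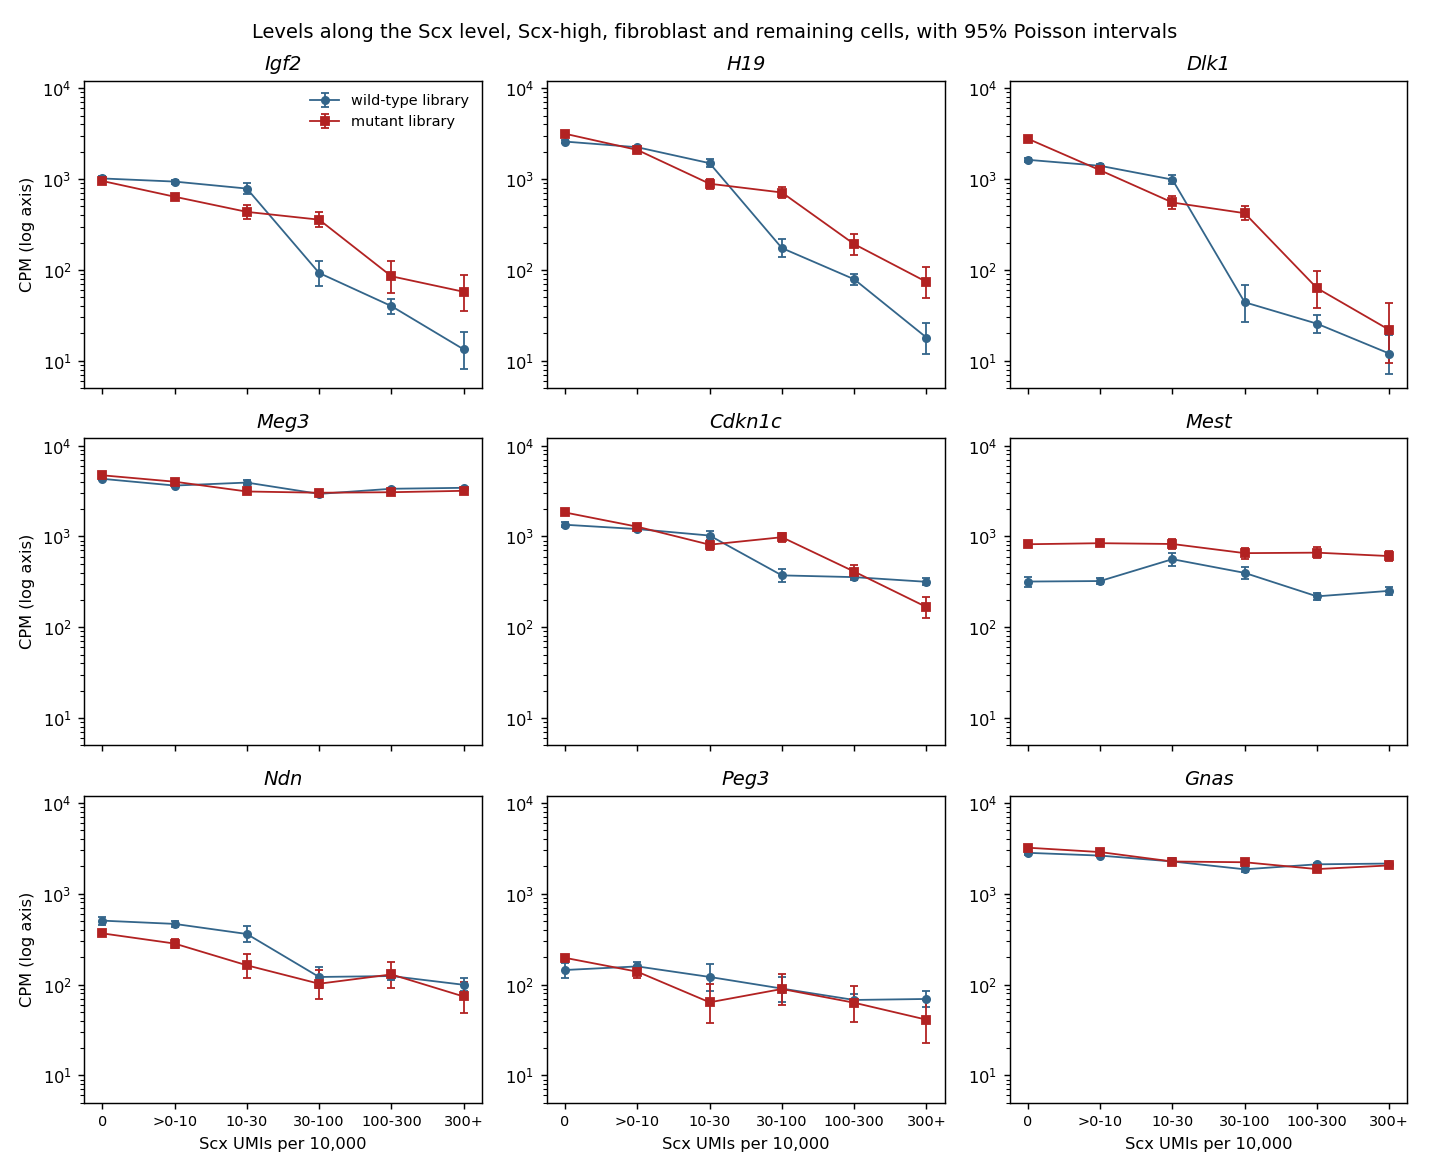
CPM of each gene (log axis) in 6 bins of Scx UMIs per 10000, for Scx-high, fibroblast and remaining cells of the wild-type (circles) and mutant (squares) library, with exact Poisson 95% intervals. Igf2, H19 and Dlk1 are lower in each next bin, H19 from 2586 to 18.0 in the wild-type library, while Meg3 lies between 2936 and 4302 CPM and Gnas between 1856 and 2818 in that library.

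Co-detection was counted in cells thinned to 1500 UMIs, so that depth was equal, which left out 41 wild-type and 165 mutant fibroblasts. Of 678 wild-type fibroblasts 33.9% (30.4 to 37.6, exact binomial) held all of Igf2, H19 and Dlk1, and the product of the separate shares was 17.2%. Of 1650 mutant fibroblasts 36.2% (33.9 to 38.6) held all 3, against a product of 22.5%. Fibroblasts with none of the 3 made up 23.6% and 16.4%, against products of 8.05% and 5.19%. The 3 genes were thus found together, and missing together, more often than their separate shares give. In Scx-high cells 7 of 1070 wild-type and 4 of 196 mutant cells held all 3.

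Igf2 and H19, the neighbours on chromosome 7, were both present in 49.1% of wild-type fibroblasts against a product of 37.6%, and in 51.4% of mutant fibroblasts against 43.3%. Their phi coefficient, a correlation of presence over cells, was 0.49 and 0.37, the second highest of the 36 pairs in each library. The highest was that of H19 with Cdkn1c in the wild-type library, at 0.50, and of H19 with Dlk1 in the mutant library, at 0.40. Dlk1 and Meg3, the neighbours on chromosome 12, had 0.23 and 0.22, in places 8 and 6. Phi cannot reach 1 where the 2 separate shares differ. Meg3 was in 90.9% and 92.4% of fibroblasts and Dlk1 in 45.9% and 52.0%, which holds their phi down. The place of this pair thus cannot be compared with that of Igf2 and H19, whose shares were closer. H19 with Cdkn1c had 0.18 in mutant fibroblasts. The order depended on the thinning. At 2000 UMIs Igf2 with H19 was the highest pair in both libraries (0.51 and 0.41), and at 1000 UMIs it was in place 3 in the wild-type library and 2 in the mutant one, with H19 and Dlk1 highest in both. These coefficients share the library and depth of their cells and are descriptions.

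Fibroblasts with all 3 of these genes differed from those with none in other genes too. Cdkn1c was at 2374 CPM in wild-type cells with all 3 and at 225 in cells with none, a ratio of 10.6 (8.01 to 14.2). In mutant cells it was at 2603 and 1089.8 CPM, a ratio of 2.39 (2.16 to 2.65). Fibroblasts with none of the 3 thus held less Cdkn1c in the wild-type than in the mutant library. Peg3 was 4.74 and 4.07-fold higher with all 3, on 16 and 30 UMIs in cells with none. Meg3 was 3.22 and 2.59-fold higher with all 3, Ndn 1.51 and 2.74-fold and Mest 2.02 and 1.48-fold. All 6 other imprinted genes of the set were higher in cells with all 3, in each library. Of the 5 genes of the fibroblast rule, 5 in wild-type and 4 in mutant cells were higher too. The share over all genes was not counted for this split, so nothing is read from these counts or from those of the tendon and fibroblast genes below.

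The tendon genes went the other way. All 6 of them (Tnmd, Fmod, Col11a1, Col1a1, Thbs4 and Mkx) had lower values in fibroblasts with all 3 genes in both libraries, Mkx on 4 and 3 UMIs in the wild-type library. Tnmd, the tendon marker tenomodulin, was at 2317 CPM in wild-type cells with none and 409 in cells with all 3, a 5.67-fold gap (4.70 to 6.87), and at 2017 and 554 in mutant cells, a 3.64-fold gap (3.25 to 4.08). Of 6 fibroblast genes that the class rule did not use, 6 in wild-type and 5 in mutant cells had higher values in cells with all 3, and Dcn was the exception. Pi16, a marker of adventitial fibroblasts, was 3.96-fold (3.04 to 5.23) and 2.59-fold (1.97 to 3.44) higher. Free RNA of tendon cells, whose share differs between the libraries, was not removed from these values.

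**Figure D4:**
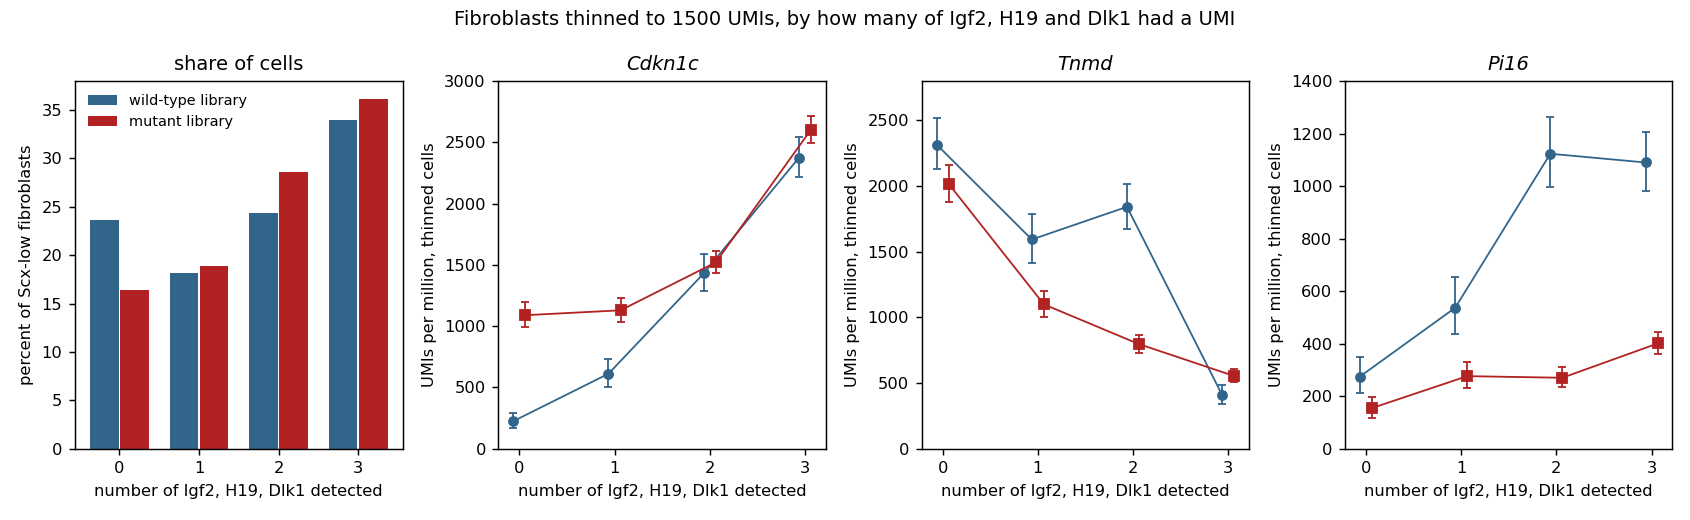
Scx-low fibroblasts thinned to 1500 UMIs, by how many of Igf2, H19 and Dlk1 had a UMI: the share of cells in percent (bars) and the CPM of Cdkn1c, Tnmd and Pi16 with exact Poisson 95% intervals, for the wild-type and mutant library. Cdkn1c goes from 225 to 2374 CPM in the wild-type and from 1089.8 to 2603 in the mutant library, and Tnmd goes the other way.

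Cycling cells, with at least 3 UMIs over at least 2 genes of a list of 15 cell-cycle genes, numbered 199 and 198 and overlap the other classes. Within Scx-low fibroblasts Cdkn1c, the cell-cycle inhibitor, was at 0.489 (0.415 to 0.572) of the level of other fibroblasts in the wild-type and at 0.675 (0.616 to 0.739) in the mutant library. Meg3 was at 0.474 (0.432 to 0.519) and 0.461 (0.431 to 0.492). These were the lowest of the set in the wild-type library, where Dlk1 was at 0.585, Peg3 at 0.584 and H19 at 0.605. Mest was the exception in the wild-type library only, at 1.44 (1.18 to 1.74) in cycling wild-type fibroblasts and 0.718 (0.632 to 0.814) in mutant ones. In Scx-high cells Mest showed the same pair, 1.72 (1.45 to 2.03) and 0.708 (0.567 to 0.878). These values rest on 51 wild-type and 99 mutant cycling fibroblasts and on 81 and 35 cycling Scx-high cells. The ratios of all genes were not counted for this split. Between the libraries, cycling cells as a whole had ratios of 2.69 for Cdkn1c, 2.53 for H19, 2.50 for Dlk1, 1.67 for Mest and 1.60 for Igf2, and the mix of classes among them differed.

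The genes most alike in pattern were sought among 7032 genes over 12 points, 6 classes in each library, by Pearson correlation of log2(CPM + 10). For Igf2 they were H19 (0.97), Osr2 (0.91) and Aldh1a3 (0.88). For H19 they were Igf2, Myoc (0.87) and Aldh1a3 (0.87), and for Dlk1 S100b (0.92), Zfp503 (0.91) and Gpc3 (0.91). Igf2 and H19 were each other's nearest gene, and Dlk1 and Meg3 were not, at 0.70. S100b was used to set Schwann cells aside, and the 12 points share 2 libraries.

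The partners of these genes were counted from 4 lists. They were 45 other imprinted genes, 15 genes linked to IGF2 (IGF2 partners), 10 of Notch signalling as partners of DLK1 and 6 other cyclin-dependent kinase inhibitors. The IGF2 partners include Igf1, Irs1, Irs2 and the Igf2bp genes besides receptors and binding proteins. Between the libraries in Scx-low fibroblasts, 1 of 26 other imprinted genes, 3 of 13 IGF2 partners, 0 of 6 DLK1 partners and 1 of 5 kinase inhibitors with enough counts were at least 2-fold higher in the mutant, and 0, 1, 1 and 1 at least 2-fold lower, beside 4.07% and 4.43% of all genes. Their median log2 ratios were 0.03, 0.23, -0.73 and -0.54, and that of all genes -0.03. Farthest apart were Cdkn2b (6.71, from 4 and 56 UMIs), Igfbp2 (5.44) and Igfbp4 (2.55) on the higher side. On the lower side were Igfbp6 (0.203), Cdkn1a (0.365) and Jag1 (0.404). Igfbp2, Igfbp4 and Igfbp6 encode proteins that bind insulin-like growth factors, and Igfbp6 prefers IGF2.

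The receptors of IGF2 had ratios near 1 between the libraries. Igf1r, the signalling receptor, had a ratio of 0.963 in fibroblasts and 1.07 in Scx-high cells, and Igf2r, the imprinted clearance receptor, 1.01 and 1.12. Grb10, an imprinted adaptor that restrains insulin-like signalling, had 1.197 and 1.35, and Plagl1, an imprinted zinc finger factor, 1.36 and 1.02. Plagl1 was 3.39-fold higher in fibroblasts than in Scx-high cells for the wild-type and 4.55-fold for the mutant library, and Igf2r 2.42 and 2.19-fold. Grb10 had 1.70 and 1.51 and Igf1r 1.77 and 1.59.

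In Scx-high cells 1 of 19 other imprinted genes, 2 of 10 IGF2 partners, 0 of 2 DLK1 partners and 1 of 5 kinase inhibitors were at least 2-fold higher in the mutant library, and 1, 0, 0 and 0 at least 2-fold lower, beside 9.97% and 5.85% of all genes. Cdkn2b, which encodes the inhibitor p15, had 0 UMIs in 1155 wild-type and 62 UMIs in 37 of 213 mutant Scx-high cells, at least 78.7-fold higher by the exact 95% lower bound. Its mutant level was 99.7 times the floor of 3 UMIs over the wild-type cells, a value that leaves out the counting error of the mutant side. Next were Mcts2 (2.99) and Igfbp2 (2.49), and on the lower side Peg10 (0.0766, 0.00191 to 0.443, from 1 mutant UMI), Mirg (0.521) and Nnat (0.555). Cdkn2b was higher in mutant Scx-high cells than in mutant fibroblasts, which had 0.158 of that level (0.108 to 0.231), the reverse of Cdkn1c.

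Over fibroblasts and Scx-high cells of the wild-type library, 6 of 22 other imprinted genes, 5 of 12 IGF2 partners, 1 of 2 DLK1 partners and 1 of 4 kinase inhibitors were at least 2-fold higher in fibroblasts, and 1, 0, 0 and 0 lower, beside 18.0% and 5.07% of all genes. In the mutant library it was 6 of 26, 6 of 12, 0 of 3 and 0 of 5, with 1, 0, 0 and 1 lower, beside 12.0% and 4.74% of all genes. Zim1, an imprinted neighbour of Peg3, was 19.2-fold (8.87 to 49.3) and 17.4-fold (4.77 to 145) higher in fibroblasts, with 2 UMIs in mutant Scx-high cells. Igfbp5 followed in the wild-type library at 5.82, and Peg10 (24.7, 4.37 to 984, from 1 UMI in Scx-high cells) and Igf2bp2 (5.79, 1.92 to 28.5, from 3 UMIs) in the mutant library. Lower in fibroblasts were Nnat (0.484), Igfbp2 (0.533) and Igfbp7 (0.588) in the wild-type library, and besides Cdkn2b, Mcts2 (0.499) and Nnat (0.607) in the mutant library.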

How the data were processed

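The authors sequenced 10x Genomics 3′ libraries and made the deposited UMI counts with Cell Ranger (1.2.0 in the submitters' processing notes; the methods name another version), aligned to mm10, with barcodes kept by total count. What the authors deposited for each condition is 1 matrix of UMI counts, whole and not normalized. All barcodes were used. Cells with over 50% haemoglobin UMIs were set apart. Immune, endothelial, Schwann and muscle cells needed at least 3 UMIs, and mural cells 5, over at least 2 markers, and cells past more than 1 lineage were called mixed. Scx-high cells and Scx-low fibroblasts were then assigned, in that order. UMIs were summed per class and scaled to CPM. Ratios have exact conditional 95% intervals, and shares exact Clopper-Pearson intervals. Thinning drew 1500 UMIs per cell without replacement. No test was run.

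The genes, lists and class rules were chosen with earlier results of these data known. Named are the 9 genes, the 3 genes most alike to Igf2, H19 and Dlk1, of the lists the 3 genes farthest from 1 in each direction per comparison, and Igf2r, Igf1r, Grb10 and Plagl1. Cdkn2b in single classes was looked at further after its value was seen, as were fibroblasts by number of genes detected and Scx-high cells by fibroblast UMIs. Of the listed genes and markers Rian, Pclaf, Hbb-b1 and Hbb-b2 had no row under these symbols. Simulated counts with known ratios were used to check the interval. Positions are from GENCODE M21 and sequences from RefSeq (GRCm38.p6). Scrublet in scanpy, at an expected rate of 2%, marked 10 cells of the wild-type library (0.423%) and 5 of the mutant one (0.193%), and these cells stayed in. Python 3.11.15, NumPy 2.4.6, SciPy 1.17.1 and pandas 2.3.3 were used.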

Additional observations from a re-analysis of the deposited data

Results flagged for a closer look

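Igf2 differed in opposite directions in the main classes, with a mutant over wild-type ratio of 4.39 (3.52 to 5.46) in Scx-high cells and 0.912 (0.869 to 0.956) in Scx-low fibroblasts. The 5 fibroblast genes summed to 690 and 5896 CPM in the same Scx-high cells, and among Scx-high cells with at least 5 of their UMIs the Igf2 ratio was 1.23 (0.956 to 1.57), an interval that holds 1. Meg3 did so the other way round and by less, with 0.928 in Scx-high cells and 1.15 in fibroblasts. With 1 library per condition these differences between classes were not tested.

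Muscle cells, which were not compared as a class above, held the highest Cdkn1c level of any class and supplied 16.5% of the mutant Cdkn1c UMIs behind the whole-library ratio. The mutant library had 46 cells with skeletal muscle markers and 12694 CPM of Cdkn1c (12154 to 13252), against 3370.4 CPM (2841 to 3970.3) in 10 wild-type cells. All 46 mutant cells held Cdkn1c, with 2 to 144 UMIs and a median of 31.5, and 8 of the 10 wild-type cells did, with a median of 6.5. Myog, a factor of differentiating muscle precursors, was present in 29 of the mutant and 2 of the wild-type cells. Mutant cells with a Myog UMI had 15860 CPM of Cdkn1c and those without 5457, and the 2 wild-type cells with Myog had 11707 CPM. H19 stood at 672 CPM (552 to 809.5) in mutant muscle cells and at 306 (163 to 524) in the wild-type ones, from 110 and 13 UMIs. Cells with Myog thus made up more of the mutant muscle class, and their part in the Cdkn1c level was not tested. The 2 muscle classes were also unlike in other genes. The 6 muscle markers summed to 2404 CPM in wild-type and 6845 in mutant muscle cells. The 6 tendon genes summed to 9145 and 837 CPM and the 5 fibroblast genes to 5798 and 1160. The part of this in the Cdkn1c and H19 differences was not tested.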

How the results depend on the processing

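The counts of genes at least 2-fold higher (4 in mutant Scx-high cells, 1 in mutant fibroblasts, and 6 in fibroblasts over Scx-high cells in each library) stayed within 1.5 times in 56 recomputations and moved further in 2. The count of 4 became 2 when free RNA at 5% of each cell was subtracted, because H19 and Dlk1 then had no ratio. In wild-type Scx-high cells more was subtracted than was counted, 411 against 331 H19 UMIs and 444 against 111 Dlk1 UMIs. The Igf2 ratio was 35.3 with this subtraction, against 4.39 without it. The count became 1 when only Scx-high cells with at least 5 fibroblast UMIs were compared, a division chosen after seeing the data. The share over all genes was not counted for that division. Ratios past 2-fold reversed in 3 cases, all in mural cells. Igf2 went from 2.65 to 0.984 with each cell's own CPM averaged. H19 went from 2.12 to 0.776 with marker minimums doubled and to 0.801 after thinning to 1500 UMIs. The cause was not tested. Of the single ratios and shares 783 recomputed values stayed within the interval or limit set for them, 133 moved further and 3 reversed. Only ratios at least 2-fold higher or lower could be labelled reversed. Smaller ratios crossed 1 as well and are not among the 3. The mutant over wild-type ratio of Ndn in Scx-high cells went from 0.865 to 1.14 after thinning. In the wild-type library the fibroblast over Scx-high ratio of Meg3 went from 1.17 to 0.857 when centred on all genes. No paired analysis was possible because each condition has 1 library. Depth limits Igf2, H19 and Dlk1 in Scx-high cells, with 111 to 331 UMIs each, and all genes in endothelial cells.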

Other observations

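Schwann cells, the glia of peripheral nerve, were 62 in the mutant and 4 in the wild-type library. In the 62 mutant cells Gnas stood at 1659 CPM (1471 to 1865), Cdkn1c at 1358 (1188 to 1546), Meg3 at 1311 (1144 to 1495), Dlk1 and H19 at 756 each (631 to 899) from 128 UMIs each, Igf2 at 313 (234 to 409), Mest at 171 (115 to 246), Ndn at 165 (109.9 to 239) and Peg3 at 47.2. The 5 fibroblast genes summed to 3496 CPM in these cells, against 13082 CPM in mutant fibroblasts, and their part in these levels was not tested. The 4 wild-type cells gave 0 to 46 UMIs per gene and no comparison was made.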
